A study of Rattus norvegicus with 28 samples.

Results

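The genes described here encode 10 proteins of the extracellular matrix, 9 matrix glycoproteins or matricellular proteins (Fn1, Thbs2, Thbs3, Tgfbi, Fbln1, Fbn1, Abi3bp, Aebp1 and Vwa1) and the small leucine-rich proteoglycan biglycan (Bgn), out of 32883 genes counted. They were found by the Ensembl gene identifier that the study's supplementary gene table pairs with each symbol, and all 10 passed the filter on low counts in every comparison. RNA was sequenced from 28 tibialis anterior muscles, the dorsiflexor on the front of the shin, of 14 young male Wistar rats. In the overexpression arm, 7 rats (416 to 422) received a plasmid carrying mouse VDR in the right leg (VDR-OE, labelled VDR knock-in) and the empty plasmid in the left (VDR-OE control, labelled Sham). In the knock-down arm, 7 other rats (423 to 429) received VDR shRNA in the right leg (VDR-KD) and scramble shRNA in the left (VDR-KD control). The status labels of this arm read VDR knock-out and Sham VDR knock-out, so labelled VDR-KD stands below for VDR knock-out. Each muscle gave 36684220 to 46312167 counts in genes.

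Every muscle, controls included, was injected with a construct or its control and pulsed with electrodes. The study's methods name lenti-shRNA particles for the injections and plasmids for the VDR-OE arm. All rats received the analgesic carprofen, and no untreated muscle was sequenced. The control of one arm is not the control of the other, and the arms used different rats. The plasmid is named pCAGGS-mVDR in the sample labels and pCMV6-mVDR in the study's methods; both names stand for vectors with a promoter that is active in many cell types. The samples are whole muscle, so a change in the number of cells of a type and a change in RNA per cell cannot be told apart. The muscle label could not be checked against its markers, because none of the 10 myofibre markers is among the genes with a symbol here.

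The matrix around muscle fibres is made largely by fibroblasts and is layered from the basement membrane of each fibre to the thick sheets between bundles. Fibronectin is laid down early and gives cells and collagen a scaffold to attach to through integrins. Fibrillin-1 builds the microfibrils on which elastic fibres form, fibulin-1 sits on fibronectin and elastic fibres, and thrombospondins, TGFBI and ABI3BP bind cells and other matrix proteins. AEBP1 (ACLP) binds collagen, biglycan coats collagen fibrils and binds growth factors, and VWA1 (WARP) belongs to basement membranes. The vitamin D receptor (VDR) is a nuclear receptor that binds DNA together with the retinoid X receptor.

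The stretches just before 3 of these genes are shown because Tgfbi and Vwa1 were the members whose VDR-OE muscles all lay above all the control muscles, and Aebp1 had, with Vwa1, the call that remained when all 28 muscles were fitted together. RefSeq's promoter table for the rat build GRCr8 held 6 of the 10 genes (Abi3bp, Aebp1, Fbn1, Tgfbi, Thbs3 and Vwa1). The 250 bases before the start of each gene are printed 5′ to 3′ on the gene's strand, with matches to the searched motifs in capitals. The positions are Aebp1 at chr14:84952604-84952853 on the plus strand, Tgfbi at chr17:7990114-7990363 on the minus strand and Vwa1 at chr5:171664881-171665130 on the minus strand.
Aebp1: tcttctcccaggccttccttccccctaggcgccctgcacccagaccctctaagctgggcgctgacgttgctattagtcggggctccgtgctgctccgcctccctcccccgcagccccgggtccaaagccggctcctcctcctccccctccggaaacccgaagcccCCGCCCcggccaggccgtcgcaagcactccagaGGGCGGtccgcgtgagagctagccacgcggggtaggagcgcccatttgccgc
Tgfbi: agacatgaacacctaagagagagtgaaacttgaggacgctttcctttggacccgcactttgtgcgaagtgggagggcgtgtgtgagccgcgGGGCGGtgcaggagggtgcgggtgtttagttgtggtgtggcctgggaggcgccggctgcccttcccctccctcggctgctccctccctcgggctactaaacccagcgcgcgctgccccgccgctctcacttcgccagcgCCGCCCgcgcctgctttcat
Vwa1: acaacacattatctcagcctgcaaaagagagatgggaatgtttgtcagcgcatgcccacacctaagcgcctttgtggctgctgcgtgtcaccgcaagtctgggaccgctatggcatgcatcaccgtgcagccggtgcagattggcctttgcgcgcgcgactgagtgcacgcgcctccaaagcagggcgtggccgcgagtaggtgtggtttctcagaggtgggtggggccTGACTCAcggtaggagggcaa

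Both strands were searched for 6 motifs. AGGTCA and GGTTCA, forms of the VDR half-site, were found in none of the 6 windows. Of the 33469 windows in the table, 14.1% and 9.77% held them. Other forms of the half-site were not searched for. GGGCGG, the core of the Sp1 box, was found in 3 of the 6 windows and in 30.5% of all. It lay at -85 to -80 and at -52 to -47 in Aebp1, at -159 to -154 and at -20 to -15 in Tgfbi, and at -53 to -48 in Thbs3, counted from -1 at the base before the start. TGACTCA, the AP-1 motif, was found only in Vwa1, at -21 to -15, and in 4.05% of all windows. CACGTG (5.59% of all windows) and TATAAA (12.9%) were in none of the 6. The G and C content was 40.8% for Abi3bp and 60% to 71.2% for the other 5, with a median of 51.2% over all windows. A match describes the letters only, and these windows say nothing of sites elsewhere.

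The targeted gene was examined first, since it checks the labels. Vdr was read at 1.92, 3.91 and 6.64 CPM (counts scaled to library size with TMM factors) in the lowest, median and highest VDR-OE control muscle and at 5.45, 2360 and 5940 CPM in the VDR-OE muscles. In 6 of the 7 rats Vdr exceeded the control leg by 5.69 to 10.78 on the log2 scale. In rat 419 the leg labelled VDR-OE was not, with a log2 ratio of -0.07. Vdr was at 1.40, 3.35 and 8.21 CPM in the VDR-KD control muscles and at 1.94, 2.61 and 6.39 CPM in the muscles labelled VDR-KD, lower in 4 of the 7 rats. The fitted log2 fold change there was -0.26 (95% interval -1.18 to 0.66, adjusted p = 0.839, edgeR quasi-likelihood test), so the libraries labelled VDR-KD did not show a lower Vdr level beyond the spread between rats. The construct is mouse VDR, so the level read in the VDR-OE legs depends on how its reads mapped to the rat gene.

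The first comparison asked which of the 10 genes differed between the VDR-OE leg and the control leg of the same rat. All 10 rose, by 1.53-fold to 2.26-fold, and none fell. The largest changes were in Fbln1, Thbs2, Aebp1 and Fn1, and the smallest and most even was in Vwa1. The median log2 fold change of the 10 was 0.86, against -0.003 over all genes tested. Of 14526 genes tested, 593 were called higher (4.08%) and 444 lower (3.06%) at an adjusted p under 0.05 (edgeR quasi-likelihood test, rat as a block, Benjamini-Hochberg over all genes). Symbols come from a table of the genes with the smallest p in the study's own fit of these VDR-OE samples, so the members had been chosen on this contrast and their count and direction are no independent evidence.

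**Figure D1:**
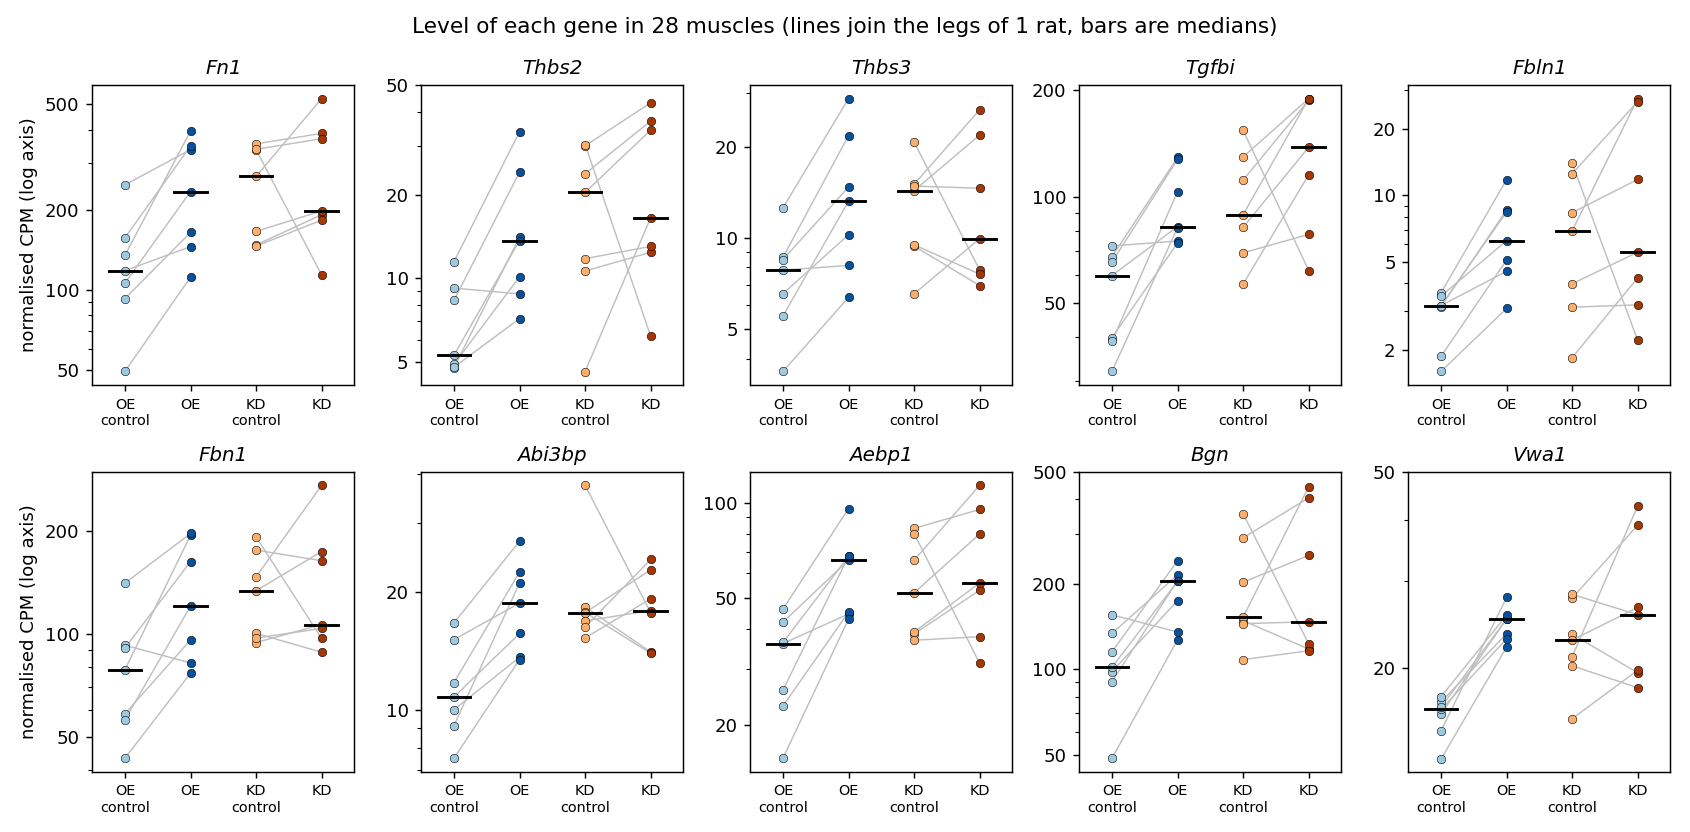
Normalised CPM of the 10 genes in the 28 muscles on log axes, by group, each point 1 muscle, with grey lines joining the legs of a rat and black bars at the group median. The VDR-OE control group has the lowest median of the 4 groups in each panel, and only for Tgfbi and Vwa1 do all VDR-OE muscles lie above all their control muscles.

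Fibronectin (Fn1, ENSRNOG00000014288), the ligand of several integrins, was at 49.2, 118 and 249 CPM in the lowest, median and highest VDR-OE control muscle and at 111, 235 and 397 CPM in the VDR-OE muscles. The VDR-OE leg was the higher leg in each of the 7 rats, although the groups overlapped. The fitted log2 fold change was 0.93 (95% interval 0.60 to 1.27, adjusted p = 0.02, edgeR quasi-likelihood test), a 1.91-fold rise. Within rats, the log2 ratio was 0.94 ± 0.45 (SD, n = 7), from 0.30 in rat 416 to 1.56 in rat 418.

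The second cell-binding group is Tgfbi (ENSRNOG00000012216), an adhesion protein named for its induction by TGF-beta, and Abi3bp (ENSRNOG00000001627), which binds collagen and cells. Tgfbi was at 31.9, 59.7 and 72.5 CPM in the VDR-OE control muscles and at 73.9, 82.2 and 129 CPM in the VDR-OE muscles. The groups did not overlap, which was so in the upward direction for 78 of the 14526 genes (0.537%) and for 2 of the 10 members. Its fitted log2 fold change was 0.85 (0.51 to 1.20, adjusted p = 0.0237, edgeR quasi-likelihood test), and its within-rat ratios ran from 0.05 in rat 416 to 1.41 in rat 421.

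Abi3bp was at 7.52, 10.8 and 16.7 CPM in the control muscles and at 13.4, 18.8 and 27.0 CPM in the VDR-OE muscles. Its log2 fold change was 0.70 (0.45 to 0.95, adjusted p = 0.0198, edgeR quasi-likelihood test), with a within-rat ratio of 0.71 ± 0.31 (SD, n = 7). Unlike the other 9 genes, its smallest ratio was in rat 420 (0.31) and not in rat 416 (0.54).

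Of the thrombospondins, which bind cells, calcium and collagen, Thbs2 (ENSRNOG00000010529) was at 4.77, 5.28 and 11.5 CPM in the control muscles and at 7.16, 13.7 and 33.8 CPM in the VDR-OE muscles. It was higher in 6 of 7 rats, with a ratio of -0.07 in rat 416 and ratios of 0.58 to 1.56 in the others. The fitted log2 fold change was 1.08 (0.63 to 1.54, adjusted p = 0.0269, edgeR quasi-likelihood test). Thbs3 (ENSRNOG00000059903), a pentameric relative, was at 3.63, 7.83 and 12.6 CPM in the control muscles and at 6.36, 13.2 and 28.8 CPM in the VDR-OE muscles. It was higher in all 7 rats and rose by a log2 fold change of 0.86 (0.53 to 1.20, adjusted p = 0.0224, edgeR quasi-likelihood test).

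The elastic-fibre proteins were fibulin-1 and fibrillin-1. Fbln1 (ENSRNOG00000014137) was at 1.59, 3.17 and 3.62 CPM in the control muscles, from 54 to 157 counts, and at 3.07, 6.24 and 11.8 CPM in the VDR-OE muscles. It had the largest fitted log2 fold change of the 10, 1.18 (0.83 to 1.52, adjusted p = 0.0163, edgeR quasi-likelihood test), and was higher in all 7 rats. Fbn1 (ENSRNOG00000007302) was at 43.3, 78.6 and 141 CPM in the control muscles and at 76.8, 121 and 197 CPM in the VDR-OE muscles. It was higher in 6 of 7 rats, with -0.17 in rat 416, and had the highest adjusted p of the 10 (0.0351, log2 fold change 0.72, interval 0.37 to 1.07, edgeR quasi-likelihood test).

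The collagen-associated members were Aebp1 and Bgn. Aebp1 (ENSRNOG00000013720) was at 15.7, 36.0 and 46.3 CPM in the control muscles and at 43.0, 66.1 and 96.0 CPM in the VDR-OE muscles, a narrow overlap. It rose by a log2 fold change of 0.95 (0.66 to 1.24, adjusted p = 0.0163, edgeR quasi-likelihood test) and in all 7 rats, from 0.31 to 1.46. Bgn (ENSRNOG00000055962) was at 48.5, 102 and 156 CPM in the control muscles and at 127, 205 and 242 CPM in the VDR-OE muscles. It was higher in 6 of 7 rats, with -0.20 in rat 416, and its log2 fold change was 0.85 (0.47 to 1.22, adjusted p = 0.0282, edgeR quasi-likelihood test).

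The basement-membrane protein Vwa1 (ENSRNOG00000018338) was the most even member. It was at 13.1, 16.5 and 17.5 CPM in the control muscles and at 22.1, 25.2 and 27.8 CPM in the VDR-OE muscles, and the groups did not overlap. The coefficient of variation was 9.48% and 7.85%. Its log2 fold change was 0.61 (0.45 to 0.77, adjusted p = 0.0148, edgeR quasi-likelihood test), the smallest change with the lowest p of the 10. Within rats the ratio was 0.62 ± 0.16 (SD, n = 7), from 0.46 to 0.90, and so smaller in spread than the ± 0.31 to ± 0.62 of the other 9.

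Read by rat, 7 of the 10 genes (Fn1, Thbs3, Tgfbi, Fbln1, Abi3bp, Aebp1 and Vwa1) exceeded their control leg in each rat of the arm, a pattern of 785 of all 14526 genes (5.4%). Rat 416 stood lowest, with a mean log2 ratio over the 10 genes of 0.18 and 7 of 10 higher, while its Vdr ratio was 10.01. In the other 6 rats all 10 were higher, with means of 0.86 to 1.24. Rat 419, whose leg labelled VDR-OE had no more Vdr than its control leg, had a mean of 0.91.

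**Figure D2:**
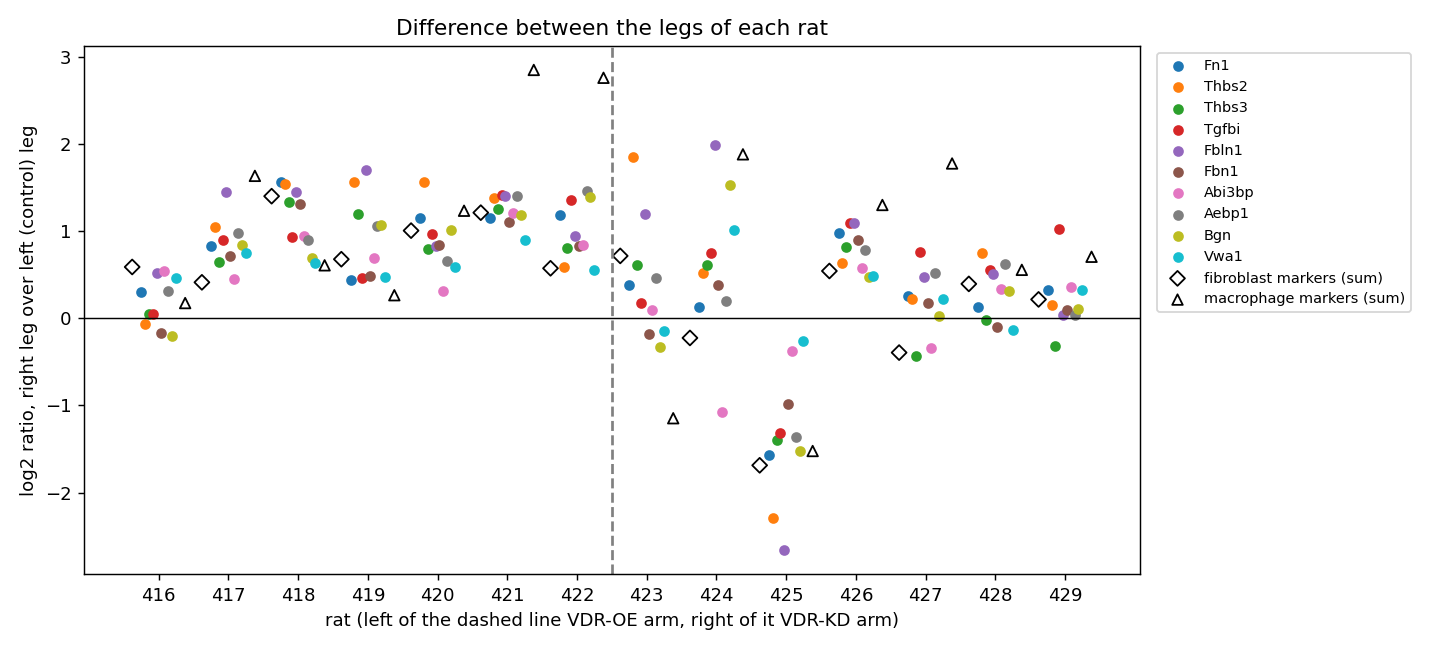
The log2 ratio of the right leg to the left leg in each rat for each of the 10 genes (coloured points), and for the summed CPM of the fibroblast (open diamonds) and macrophage markers (open triangles). In rats 417 to 422 all 10 genes lie above 0, in rat 425 all lie below 0 together with both marker sums, and rat 424 spreads widest among the other rats of its arm.

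The calls depended on which rats were fitted. Without rat 419, 6 of the 10 were called (Fn1, Tgfbi, Fbln1, Abi3bp, Aebp1 and Vwa1), where 103 of 14395 genes (0.716%) were called higher. Without rat 418, 420 or 421 none was called, with adjusted p of 0.0597 to 0.113, and over all genes 1, 4 and 0 were called. Without rat 417, 4 members were called, where 83 genes (0.575%) were called higher. Without rat 422, 8 were called, where 227 genes (1.58%) were. Without rat 416 all 10 were called, in a fit that called 2486 of 14363 genes higher (17.3%). The median log2 fold change of the 10 was 0.796 to 1.003 in these 7 fits.
With no scaling beyond library size none of the 10 passed (adjusted p 0.0777 to 0.117), while the median of all genes stood at 0.11 and that of the members at 0.98 on the log2 scale, and of the 4 genes called 1 was higher and 3 lower. Without the block for the rat, 6 passed, Fn1, Thbs2, Thbs3 and Fbn1 being lost, where 409 genes (2.82%) were called higher. In 1 fit of all 28 muscles, 2 passed (Aebp1 and Vwa1), where 0.523% of genes were called higher.

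The markers of other cells also had higher fitted levels in VDR-OE legs, and their symbols come from the same table. Of 10 fibroblast markers 8 had a symbol (Pdgfra, Dcn, Lum, Col1a1, Col3a1, Dpt, Mfap5 and Fap), and 7 were called higher in VDR-OE legs. The summed level of the 8 was 1530 to 5280 CPM in the control muscles and 2280 to 8730 CPM in the VDR-OE muscles. Most of this sum was collagen. In the control muscles its median was 2890 CPM, with medians of 1710 CPM for Col3a1, 886 for Col1a1, 20.4 for Pdgfra and 6.78 for Fap. Dcn, Lum, Dpt and Mfap5 also stand in the lists of matrix genes below, so this sum largely reads matrix genes again. Of 10 macrophage markers 6 had a symbol (Csf1r, C1qb, C1qc, Mrc1, Cd163 and Lyz2) and 3 were called higher, with sums of 173 to 706 CPM and 476 to 1500 CPM. Of the 6 pericyte and smooth muscle markers 2 had a symbol (Pdgfrb and Tagln) and both were called higher, with sums of 77.7 to 114 CPM and 97.7 to 158 CPM. Of the 6 T and B cell markers only Cd2 had one, at 2.36 to 8.22 CPM and 4.25 to 14.8 CPM, and it was not called. No marker of endothelial cells, satellite cells, Schwann cells or adipocytes had a symbol, and no marker read here was at 0 in all muscles of a group. In rat 416 the fibroblast sum had a log2 ratio of 0.59 and the macrophage sum 0.17. Over the 7 rats the fibroblast ratio ran from 0.41 in rat 417 to 1.40 in rat 418. The macrophage ratio ran from 0.17 in rat 416 to 2.85 in rat 421. The mean ratio of the 10 genes was 0.18 in rat 416, 0.86 in rat 417, 1.13 in rat 418 and 1.24 in rat 421. The part of the markers in the result was not tested.

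The second comparison asked the same of the legs labelled VDR-KD and their scramble controls. None of the 10 genes passed the test, and none of 14652 genes did (0%), although 395 had an unadjusted p under 0.05. The likelihood ratio test of edgeR and DESeq2 also called 0 genes. The fitted log2 fold changes of the members ran from -0.06 to 0.48, 8 above and 2 below 0, with a median of 0.16 against 0.009 over all genes. Adjusted p ran from 0.803 to 0.997 (edgeR quasi-likelihood test).

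The intervals were wide, so these data do not show that the levels were alike. For Fn1 the log2 fold change was 0.12 (95% interval -0.49 to 0.72), and for Fbln1 it was 0.48 (-0.63 to 1.59). Tgfbi stood at 0.47 (-0.17 to 1.10) and Thbs2 at 0.32 (-0.61 to 1.25). The narrowest interval was that of Vwa1, from -0.15 to 0.59 around 0.22. Abi3bp was at -0.06 (-0.50 to 0.39). These values depended on single rats: Thbs2 was at 0.06 without rat 423 and 0.68 without rat 425, Fbln1 at 0.21 without rat 424 and 0.89 without rat 425, and Tgfbi at 0.73 without rat 425.

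The levels behind these values covered wide ranges. Fn1 was at 146, 268 and 355 CPM in the VDR-KD control muscles and at 114, 198 and 526 CPM in the muscles labelled VDR-KD, the latter group holding both the higher and the lower extreme. Fbln1 was at 1.84, 6.91 and 14 CPM and at 2.20, 5.53 and 27.5 CPM. Vwa1 was at 15.8, 22.8 and 28.2 CPM and at 18.3, 25.7 and 42.6 CPM, with a coefficient of variation of 19.0% and 35.7%.
Tgfbi had its highest group median here, 138 CPM (61.6 to 190) in the muscles labelled VDR-KD against 88.9 CPM (56.5 to 154) in their controls. Bgn reached 443 CPM in the muscle of rat 424 labelled VDR-KD, from 116 CPM at the lowest, and its controls ran from 108 to 355 CPM. Aebp1 was at 36.9, 52.0 and 83.1 CPM in the controls and at 31.2, 56.0 and 114 CPM in the other legs. The ranges of the paired groups overlapped for each of these genes.
Thbs2 was at 4.61, 20.5 and 30.4 CPM and at 6.19, 16.6 and 43.1 CPM, and Thbs3 at 6.54, 14.3 and 20.7 CPM and at 6.96, 9.95 and 26.5 CPM. Fbn1 was at 94.4, 134 and 192 CPM and at 88.4, 107 and 273 CPM. Abi3bp was at 15.3, 17.7 and 37.5 CPM in the controls, the highest being rat 424, and at 13.9, 17.9 and 24.2 CPM in the legs labelled VDR-KD. It was the only member whose highest muscle in this arm was a control muscle.

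Rat 425 stood apart from the rest of its arm, and in it all 10 genes were lower in the leg labelled VDR-KD. Its ratios ran from -0.26 for Vwa1 to -2.66 for Fbln1, with a mean of -1.38. Its fibroblast marker sum had a ratio of -1.69 and its macrophage sum -1.52, and their part in these ratios was not tested. In the other 6 rats the mean over the 10 genes was 0.19 to 0.78, with 7 to 10 of the 10 higher. The fibroblast sum had a ratio of -0.227 in rat 424 and -0.395 in rat 427. The macrophage sum had ratios of 1.879 and 1.774 in these rats. In rat 423 the macrophage sum had -1.148 and the fibroblast sum 0.714. The means of the 10 genes in rats 424, 427 and 423 were 0.60, 0.19 and 0.41. Both sums were higher in rats 426, 428 and 429. None of the members was higher in all 7 rats, as 49 of 14652 genes were (0.334%). Without rat 425 again no member and no gene was called, and the median of the 10 was 0.36. Without rat 426 that median was 0.06.
Markers in this arm were not called either. The fibroblast sum was 2910 to 8970 CPM in the controls and 2680 to 9070 CPM in the legs labelled VDR-KD, and the macrophage sum was 459 to 1830 CPM and 392 to 2490 CPM. The pericyte and smooth muscle sum was 87.4 to 137 CPM and 83.3 to 143 CPM, and Cd2 was at 4.01 to 12.4 CPM and 2.38 to 23.8 CPM. The share of counts in the 10 most abundant genes had a median of 18.4% in the legs labelled VDR-KD, against 24.8% in their controls, 25.2% in VDR-OE and 27% in VDR-OE controls.

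Whether the within-rat change differed between the arms was tested directly, in 1 fit of all 28 muscles. The difference, VDR-OE change minus VDR-KD change, was above 0 for all 10 genes, from 0.39 for Vwa1 to 0.86 for Thbs3, with a median of 0.75 against 0.03 over all genes. None passed (adjusted p 0.505 to 0.916, edgeR quasi-likelihood test), and none of 15112 genes did (0%), with 1099 at an unadjusted p under 0.05. The likelihood ratio test called 18 genes and DESeq2 43, no member among them. At an unadjusted p under 0.05 stood 6 members, of which Abi3bp was first (log2 difference 0.75, interval 0.26 to 1.25). Without rat 425 the median difference of the 10 was 0.50, with Tgfbi at 0.13, Fbln1 at 0.29 and Thbs2 at 0.41. This difference holds the VDR-OE contrast within it and shares all of its muscles. The members had been chosen on that contrast, so their direction and counts here are no independent evidence.

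**Figure D3:**
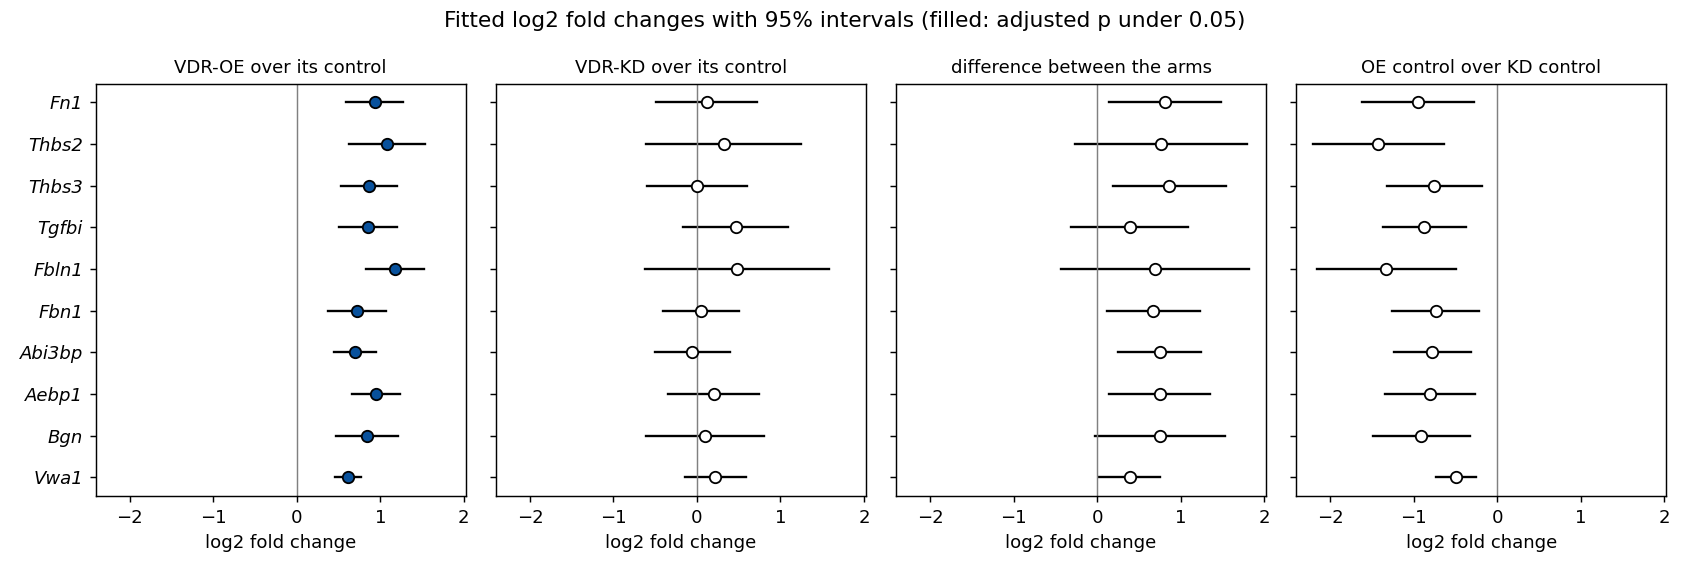
Fitted log2 fold changes of the 10 genes (points) with 95% intervals (lines) in the 4 comparisons, filled where the adjusted p was under 0.05. The 10 points are filled only for VDR-OE over its control, where they run from 0.61 to 1.18; in the last panel they run from -1.43 to -0.50. The panels share muscles and are not independent.

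The VDR-OE control muscles had the lowest median of the 4 groups for each of the 10 genes, and the fit of the control legs puts values on that same observation. The members had been chosen on a contrast that uses these VDR-OE control muscles, so their direction and counts here are no independent evidence. This is a comparison between rats, in which the control construct, the arm and the rats cannot be told apart. Its VDR-OE control muscles are those of the first comparison. All 10 were lower in the VDR-OE controls, with log2 fold changes from -1.43 for Thbs2 and -1.33 for Fbln1 to -0.50 for Vwa1, and a median of -0.84 against 0.009 over all genes. None passed (adjusted p 0.0805 to 0.133, edgeR quasi-likelihood test), while all 10 had an unadjusted p under 0.05, as had 3364 of the 14458 genes.
No gene was called lower there (0%) and 4 were called higher. The likelihood ratio test called 6 members (Thbs2, Tgfbi, Fbln1, Abi3bp, Bgn and Vwa1), where 1.85% of genes were called lower. DESeq2 called 9, all but Thbs3, where 3.92% were. For none of the 10 did the control groups lie apart, as they did in the lower direction for 18 of 14458 genes (0.124%). The fibroblast marker sum was 1530 to 5280 CPM in the VDR-OE controls and 2910 to 8970 CPM in the VDR-KD controls, and the macrophage sum 173 to 706 CPM and 459 to 1830 CPM. Their part in the difference was not tested.

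Set side by side, the value of VDR-OE against its control and that of the VDR-OE control against the VDR-KD control were 0.93 and -0.95 for Fn1, 1.08 and -1.43 for Thbs2, and 0.86 and -0.755 for Thbs3. For Tgfbi they were 0.85 and -0.87, for Fbln1 1.18 and -1.33, and for Fbn1 0.72 and -0.74. For Abi3bp they were 0.70 and -0.78, for Aebp1 0.95 and -0.81, for Bgn 0.85 and -0.91, and for Vwa1 0.61 and -0.50. Both use the VDR-OE control muscles, with opposite sign, so a shift in those muscles moves both. In level, the VDR-OE median stood between the VDR-OE control median and the VDR-KD control median for Fn1, Thbs2, Thbs3, Tgfbi, Fbln1 and Fbn1, and above both for Abi3bp, Aebp1, Bgn and Vwa1. Neighbouring groups in the order of medians overlapped in range throughout, except VDR-OE control and VDR-OE for Tgfbi.

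The other genes of the same families were described from lists, where only genes with a symbol could be found, chosen by the study on this same VDR-OE contrast, so that the VDR-OE counts are no independent evidence. Of 64 other matrix glycoproteins 28 had one, and in VDR-OE 21 were called higher and none lower, with a median log2 fold change of 0.63. The lowest p belonged to Dpt (dermatopontin, a collagen-binding protein) at 0.70, Igfbp6 (an IGF-binding protein) at 0.57 and Mgp (matrix Gla protein, an inhibitor of calcification) at 0.68. In VDR-KD none of the 28 was called, 17 being above 0 and 11 below, and the lowest p belonged to Eln (elastin) at -0.56, Emilin1 (an elastic-fibre glycoprotein) at 0.25 and Nid2 (nidogen-2, of basement membranes) at -0.13, each with an adjusted p of at least 0.803 (edgeR quasi-likelihood test). The control legs gave a median of -0.64 for the 28 and none called.

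Of 20 other proteoglycans 6 had a symbol. Of these, 4 small leucine-rich proteoglycans rose in VDR-OE, Ogn (osteoglycin) by 0.84, Dcn (decorin) by 0.64, Prelp by 0.53 and Lum (lumican) by 0.94. Podnl1 (1.29), of the same leucine-rich family, and Vcan (versican, 1.15) had larger values and did not pass, with adjusted p of 0.0798 and 0.0557 (edgeR quasi-likelihood test). Ogn was read at low levels, 0.361 to 0.794 CPM in the control muscles and 0.763 to 1.64 CPM in the VDR-OE muscles. In VDR-KD none of the 6 passed, with Prelp at 0.27, Podnl1 at 0.84 and Dcn at 0.16 in order of p.

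Of 27 cell surface receptors for matrix proteins 6 had a symbol, and 3 were called higher in VDR-OE. These were Sdc1 (syndecan-1, a heparan sulphate proteoglycan) at 1.03, Ddr2 (a collagen receptor) at 0.56 and Lrp1 (an endocytic receptor that binds thrombospondins) at 0.85. None was called in VDR-KD, with Sdc1 at 0.68, Itga2 (a collagen-binding integrin chain) at -0.33 and Lrp1 at 0.29. Itga2 was read at low levels, 0.44 to 1.6 CPM in the VDR-KD controls and 0.42 to 1.03 CPM in the legs labelled VDR-KD. Of 14 TGF-beta ligands, receptors and early targets 4 had one: the receptors Tgfbr2 (0.54) and Tgfbr3 (0.51) were called higher, the ligand Tgfb2 lower (-0.49), and Tgfb1 was at 0.62 with an adjusted p of 0.0609 (edgeR quasi-likelihood test). None of the 4 was called in VDR-KD, where Tgfbr2 was at 0.27, Tgfb1 at 0.43 and Tgfb2 at -0.24.

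How the 10 genes varied together was described from each muscle's deviation from its group mean, in log2 CPM over the 28 muscles, which share rats in pairs and differ in their levels of cell type markers. Over the 45 pairs of members the median Pearson r was 0.78. The highest was between Fn1 and Fbn1 (0.94) and the lowest between Abi3bp and Vwa1 (0.05). With the other members, Abi3bp reached at most 0.69 (Fn1) and Vwa1 at most 0.76 (Fbln1).

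**Figure D4:**
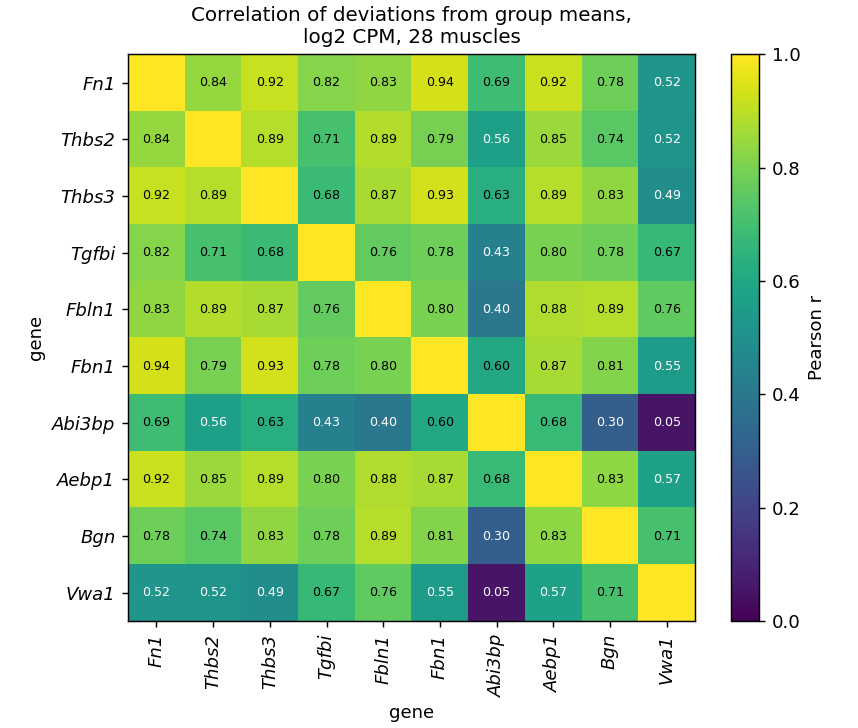
Pearson r between the deviations of each pair of the 10 genes from their group means, in log2 CPM over 28 muscles, with the value in each cell and the colour scale from 0 to 1. Fn1 and Fbn1 have the highest value (0.94), Abi3bp and Vwa1 the lowest (0.05).

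Among 1929 other genes with a symbol, those most like each member in this measure were named. For Fn1 they were Fstl1 (0.94), Fbn1 (0.94) and Ssc5d (0.93), and for Fbn1 they were Svep1 (0.96), Col6a1 (0.95) and Fstl1 (0.95). For Thbs3 they were the collagen chains Col5a2 (0.98), Col5a1 (0.97) and Col6a2 (0.97). Thbs2 was nearest to Prdx4 (0.91), Antxr1 (0.91) and Col14a1 (0.91), and Aebp1 to Ccdc80 (0.95), Ssc5d (0.94) and Prdx4 (0.94).
Tgfbi was nearest to Emilin2 (0.95), Alox5ap (0.95) and the macrophage marker Csf1r (0.94). Fbln1 was nearest to Pea15 (0.96), Pdlim4 (0.92) and Ptk7 (0.91), and Bgn to Col8a1 (0.93), Rab31 (0.92) and Adam15 (0.92). For Vwa1 they were Cd200 (0.90), Ubash3b (0.88) and Slc1a3 (0.87). Abi3bp had the loosest neighbours, Clec3b (0.83), Cpz (0.82) and Entpd2 (0.80). The candidates were themselves the genes ranked first for VDR-OE in the study, so the nearest gene overall may not be among them.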

How the data were processed

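Muscle RNA (RNeasy) was made into TruSeq libraries and sequenced on an Illumina HiSeq by the authors, who trimmed the paired reads with trimmomatic and aligned and counted them with Rsubread. The deposited values are raw counts per Ensembl gene (rat genome 6.0, Ensembl release 89; 32883 genes). The labels also name bcl2fastq 2.17.1.14, FastQC 0.11.5 and edgeR 3.18.1. Reads of near-identical genes, and of overlapping genes where strand was not used, cannot be separated in such counts, and strand use is not given in the sources used here.

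Groups came from the VDR status label and rats from the animal label. Counts were tested with edgeR 4.0.16 (R 4.3.3) by the quasi-likelihood F test, with TMM factors, the rat as a block and each arm fitted alone. A gene was kept if at least 7 samples had a CPM above the one that 10 counts give in the median library, and p was adjusted by Benjamini-Hochberg over all genes tested (threshold 0.05). Differences between arms were tested in all 28 muscles, control legs without a block. CPM of single muscles used TMM factors over all 28, and log2 ratios a prior count of 0.5. Intervals are 95%. The study used a likelihood ratio test (glmFit). On simulated data of the VDR-OE arm (14526 genes, of which 200 had a log2 change of 1), the quasi-likelihood test found 81.5% of them with 2.98% false calls, and the likelihood ratio test 91% with 16.1%. For VDR-KD (14652 genes) these were 43% with 9.47% and 65.5% with 20.6%. Each simulation was a single draw, and its rates depend on how many genes change and by how much. In the VDR-OE data 4566 genes had an unadjusted p under 0.05 (edgeR quasi-likelihood test), so the simulated rates need not hold there.

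The legs of a rat are paired by the labels. The deviations of the legs of a rat from the group means correlated on average by 0.243 in the VDR-OE arm (5 of 7 rats over 0.1) and by -0.105 in the VDR-KD arm (3 of 7). No libraries of a group agreed within sampling noise. The labels name no batch.

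Symbols were taken from the study's supplementary gene table, which holds the genes with the smallest p in its VDR-OE fit. The members and gene lists were chosen with earlier results of these data known. The named genes were the 10 members, Vdr, the 3 genes of each list with the smallest p in each arm, and the 3 genes most like each member. Vcan was named beyond this rule, after its value was seen. Alternatives were DESeq2 1.42.0, the likelihood ratio test, other scalings and filters, no block, all muscles in 1 fit and leaving out each rat.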

Additional observations from a re-analysis of the deposited data

Results flagged for a closer look

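Of 60 sets of 7 values (the 10 genes in 4 groups, and their within-rat ratios in each arm), 6 held a value whose gap to its neighbour exceeded Dixon's 95% limit. For normally distributed values chance gives about 1 in 20 such sets. The CPM values were not put on a log scale for this, so that rate need not hold for them. The sets are also not independent.

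In 5 sets the value was the log2 ratio of rat 425 in the VDR-KD arm. The ratio was -1.57 for Fn1, where the next lowest rat was at 0.13, -2.30 for Thbs2 (next 0.15), -1.32 for Tgfbi (next 0.17), -2.66 for Fbln1 (next 0.03) and -1.36 for Aebp1 (next 0.04). The fibroblast and macrophage marker sums of this rat had log2 ratios of -1.69 and -1.52. Their part in the ratios was not tested.

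The other set was Abi3bp in the VDR-KD control muscles, with 37.5 CPM in rat 424 and 18.3 CPM in the next highest muscle. The ratio of Abi3bp in that rat was -1.08, while 9 of the 10 genes were higher in its leg labelled VDR-KD.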

How the results depend on the processing

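In VDR-OE, all 10 genes kept their direction under each alternative run and passed under the likelihood ratio test, DESeq2, RLE factors and both other filters. Over all genes, the likelihood ratio test called 1527 of 14526 higher and DESeq2 1660 of 14498. RLE factors gave 536 of 14526, the filter in 2 samples 577 of 15426 and no filter 464 of 22270. Of the 10 members, 6 passed without the replicate block, 2 in 1 fit of all 28 muscles, 0 with library size only and 0 to 10 without 1 rat (0 without rat 418, 420 or 421). Of the 28 other matrix glycoproteins, 21 in the fit reported, these counts were 6, 4, 0 and 0 to 26. Over all genes, 1037 were called in the fit reported (57.2% higher), 2262 by the likelihood ratio test (67.5% higher), 2738 by DESeq2, 887 without the block (46.1% higher), 229 with all 28 muscles (34.5% higher), 4 with library size only (25% higher) and 0 to 4768 without 1 rat. With library size only, the median of all genes moved to 0.11 in VDR-OE, 0.24 in VDR-KD and -0.11 for the control legs. In VDR-KD no gene was called under any setting, without the block included, and single values around 0 changed sign. Thbs3 was at 0.24 with library size only, 0.09 with no replicate block and from -0.148 to 0.22 without 1 rat (0.22, 0.077, 0 and 0.044 without rat 425, 427, 428 or 429). Abi3bp was at 0.17 with library size only and from -0.164 to 0.109 without 1 rat (0.109, 0.001 and 0.001 without rat 424, 425 or 427). Without 1 rat, Fbn1 ran from -0.094 to 0.216 (below 0 without rat 424 or 426), Bgn from -0.142 to 0.351 (below 0 without rat 424) and Fn1 from -0.031 to 0.374 (below 0 without rat 426).

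For the difference between the arms no member was called in any fit, and without 1 rat the median of the 10 ran from 0.50 (rat 425) to 0.83 (rat 416). Genes called were 18 by the likelihood ratio test (1 of the 28 glycoproteins), 43 by DESeq2 (1 of the 28), 11 without the replicate block, 1 with each other filter and 0 to 1 without 1 rat. For the control legs, 4 genes were called in the fit reported, 441 by the likelihood ratio test (6 members and 6 of the 28), 996 by DESeq2 (9 and 12), 12 with RLE factors, 0 with library size only, 12 with the filter in 2 samples, 7 with none, 132 in the fit of all muscles and 0 to 788 without 1 rat, with 0 to 5 members and 0 to 6 of the 28. Without rat 429, 5 members passed (Thbs2, Tgfbi, Fbln1, Bgn and Vwa1), where 400 of 14407 genes were called lower. Without rat 423 only Thbs2 passed, where 49 of 14347 genes were called lower. The causes were not tested. Of the changes of 1 on the log2 scale simulated for VDR-KD, 43% were found. Smaller changes were not simulated.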
